A study of Mus musculus with 6 samples.

Results

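The subject is a set of 10 G protein-coupled receptor genes that sense metabolites, adenosine or extracellular nucleotides: Gpr35, Gpr84, Ffar2, Hcar2, Adora2a, Adora2b, P2ry2, P2ry10, P2ry13 and P2ry14. They were taken by symbol from 41388 genes, and all 10 were found. Gpr35 was chosen by its measured counts, which were higher in depolarized cells of these same libraries. Its difference between the groups is therefore given as a description, and nothing is read from its test result in the fit of all genes. The others were chosen as related receptors, with earlier results of these data known. The libraries were made from RNA of C57BL/6 mouse bone marrow neutrophils that carried 250 nM of DIBAC4(3), a dye that reports membrane potential, and had received 100 nM ionomycin, a calcium ionophore. Cells of the polarized group and of the depolarized group were sorted 2 to 4 minutes later, 20000 per library, directly into lysis buffer. All cells of both groups were stimulated, so no unstimulated level is known here. Each group has 3 libraries, and a code at the end of each title joins 1 library of each group into a replicate pair. The 3 pairs are lettered A, B and C in ascending order of that code. No source used here gives the age or sex of the mice. The depolarized library of pair B carries a run label of its own, whose meaning is not given, and it is not used as a batch.

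These receptors let neutrophils read small molecules around them. Receptors coupled to inhibitory G proteins, such as those for ketone bodies, short-chain fatty acids or ADP, lower cyclic AMP and release G protein beta-gamma subunits, and in neutrophils the latter can drive calcium release and migration. The adenosine A2 receptors couple to stimulatory G proteins, raise cyclic AMP and are known for restraining neutrophil activation, while P2Y receptors respond to nucleotides that stressed cells and neutrophils themselves release. Ectonucleotidases at the cell surface turn ATP and ADP into adenosine, so the ligands of the P2Y and adenosine receptors are linked.

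The 10 receptor transcripts spanned a wide range. Hcar2 and P2ry13 were abundant, Gpr84, Gpr35, Ffar2 and P2ry2 were at intermediate levels, and P2ry14, P2ry10, Adora2b and Adora2a held at most 26 counts over the 3 libraries of a group. Per kilobase of transcript (RPKM), Hcar2 averaged 118 over the 6 libraries with a range of 83.4 to 148, above 96.4% of the 9971 genes that passed the filter on low counts. P2ry13 averaged 70.2 RPKM with a range of 48.7 to 89.0, above 94.3% of those genes. The ranges of Hcar2 and P2ry13 overlap, but within each of the 6 libraries Hcar2 was the higher. Together they held 90.0% to 94.1% of the counts of all 10 receptors in every library. The next in order were Gpr84 at 4.19 RPKM (3.75 to 5.46), Gpr35 at 2.75 (1.54 to 4.20), Ffar2 at 2.37 (1.12 to 4.31) and P2ry2 at 2.09 (1.19 to 3.65). The ranges of these 4 overlap from each to the next, so their order is not set beyond the spread. P2ry14 (0.141 RPKM), P2ry10 (0.121), Adora2b (0.0554) and Adora2a (0.00335) came last, again with ranges that overlap their neighbours in the order. Gaps without overlap lay between P2ry13 and Gpr84 and between P2ry2 and P2ry14. Within the polarized group Gpr35 ranked 6 of 10 (1.59 ± 0.0778 RPKM, SD, n = 3), and within the depolarized group it ranked 3 of 10 (3.92 ± 0.413), next to Gpr84 (3.89 ± 0.0292).

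**Figure D1:**
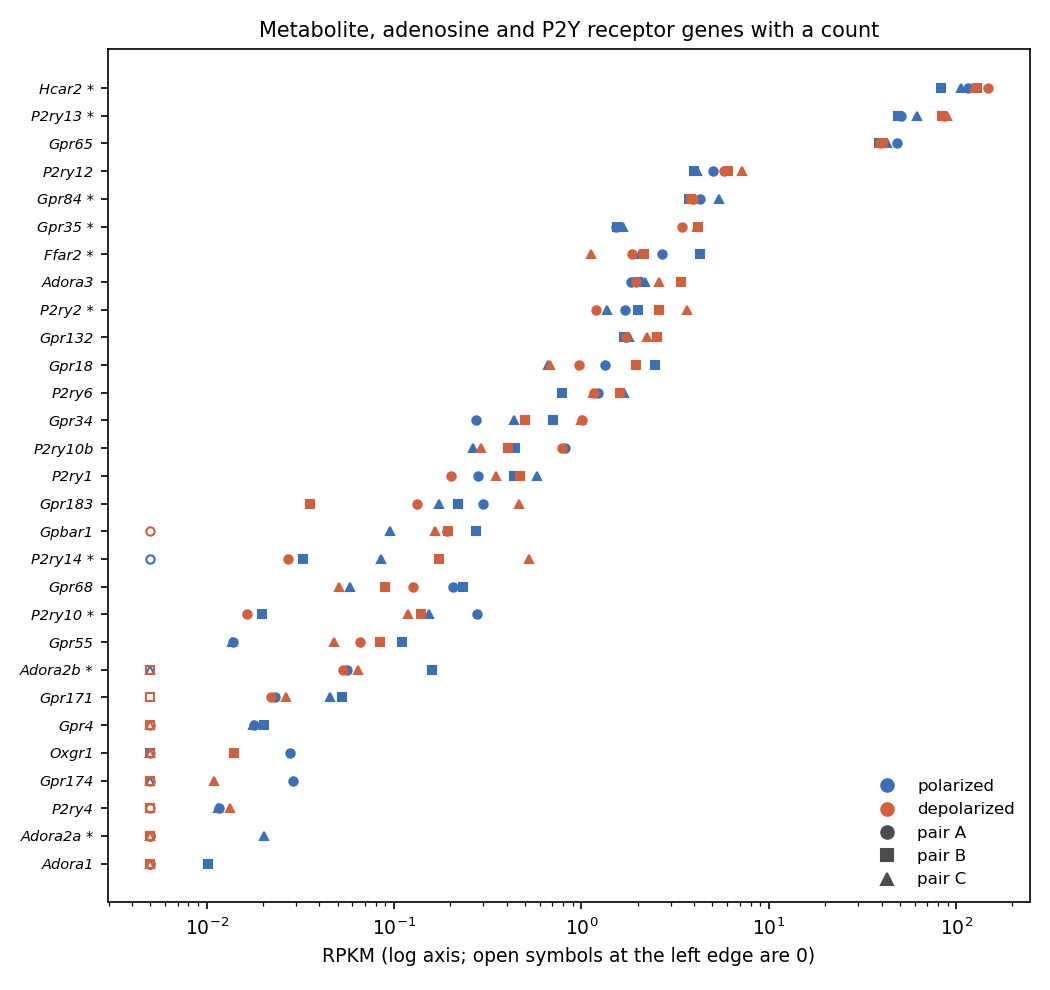
RPKM on a log axis of every receptor gene of the 3 receptor lists that had at least 1 count, 1 symbol per library (blue, polarized; orange, depolarized; shape, pair), with the 10 receptors of the set marked by an asterisk. Hcar2 and P2ry13 lie at the top with Gpr65, and Adora2a, with a count in 1 library, near the bottom.

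Cell type markers were measured in the same libraries, and a gene is said to be called where its adjusted p in the edgeR fit is under 0.05. The library of polarized cells in pair C was unlike the rest. Its counts differed from those of the other polarized libraries with a chi-square per degree of freedom of 96.1 and 100.2, against 29.1 to 45.0 for other pairs of libraries within a group, so values without pair C are given beside the results it moves. All 12 neutrophil markers were detected, summing to 199240 to 246678 CPM (counts scaled to the library total) in polarized and 171207 to 194363 CPM in depolarized libraries, with 2 of 12 (Camp and Ltf) called lower by edgeR and 0 by DESeq2. Markers of early neutrophils summed to 63.1, 114 and 355 CPM in polarized pairs A, B and C and to 16.0, 20.6 and 31.1 CPM in their depolarized partners, with 6 of 8 called lower by edgeR, 6 called by DESeq2 and none at 0 in all libraries. Markers of late neutrophils summed to 10965 to 12767 and 13141 to 14268 CPM, with 0 of 8 called by edgeR, 6 at an unadjusted p under 0.05 and 2 called by DESeq2. Eosinophil markers summed to 51.6 to 487 CPM in polarized and 60.9 to 207 CPM in depolarized libraries, monocyte markers to 895 to 1176 and 817 to 903 CPM, and macrophage markers to 1019 to 1144 and 1405 to 1619 CPM. In these 3 lists edgeR and DESeq2 called 0 genes, with 5, 3 and 6 at an unadjusted p under 0.05, in both directions within each list. Over all tested genes, 6.58% had such a p by edgeR. EdgeR called 0.0802% of all tested genes higher and 0.241% lower, and DESeq2 called 0.349% in either direction. In the monocyte list, Ly6c2 gave most of the sum, at means of 915 CPM in the polarized and 681 CPM in the depolarized group. Csf1r went the other way, at 106 and 163 CPM. The highest group mean among the other genes of that list was 1.99 CPM (F13a1, polarized). In the macrophage list, Slc40a1 gave most of the sum, and 2 of the 9 genes (Slc40a1 and Adgre1) were fitted above 0. Slc40a1 and Adgre1 were at means of 978 and 78.4 CPM in the polarized group and 1399 and 113 CPM in the depolarized group. C1qa, C1qb and C1qc were at 1.21, 6.83 and 1.31 CPM in the polarized group and 0.589, 2.35 and 0.6997 CPM in the depolarized group. Markers of B cells summed to 3.88 to 13.7 CPM over all 6 libraries, of plasma cells to 20.7 to 97.5, of T and NK cells to 16.5 to 29.8 (1 of 9, Nkg7, called lower), of basophils and mast cells to 0.196 to 2.81 and of erythroid cells to 22.5 to 84.1 CPM. The part of neutrophil stage and of other cell types in the receptor differences was not tested.

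Between the groups, 6 of the 10 receptors passed the filter on low counts and could be tested, and Adora2a, Adora2b, P2ry10 and P2ry14 did not pass. With the pair as a block, the quasi-likelihood test of edgeR called 1 of these 6 higher in depolarized cells, the gene the set was built around, where 0.0802% of all tested genes were called higher; nothing is read from that count. It called 0 lower, where 0.241% of all tested genes were called lower. Of the other 5 tested receptors, 0 were called by edgeR and 0 by DESeq2, and 2 (P2ry13 and Ffar2) had an unadjusted edgeR p under 0.05. Over all genes, 6.58% had such a p by edgeR and DESeq2 called 0.349% in either direction. The median log2 fold change was 0.35 for the 6 tested receptors and 0.33 without Gpr35, beside -0.0022 over all tested genes. The value without Gpr35 is that of Hcar2, the middle of 5 values from -0.87 (Ffar2) to 0.62 (P2ry13), of which 2 were below 0. The summed level of the 10 receptors was 317 to 391 CPM in the polarized and 505 to 538 CPM in the depolarized libraries, a sum that is mostly Hcar2 and P2ry13. In bulk libraries of sorted cells, fewer cells with a transcript and less of it per cell cannot be told apart.

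By plain CPM, the groups of 3 tested receptors (Gpr35, P2ry13 and Hcar2) did not overlap and were higher in depolarized cells, where 7.28% of all tested genes were of that kind. Gpr35 was chosen for this difference, which leaves 2 of the other 5. By the same measure 0 were lower without overlap, where 3.14% of all tested genes were. TMM scaling, which corrects for differences in library composition, moved these counts. It raised the values of the polarized library of pair C through a factor of 0.876. The depolarized libraries of pairs B and C were lowered by factors of 1.08 and 1.03. For Hcar2 the raised polarized value of 237 is still below the plain depolarized values of 252 (pair B) and 241 (pair C). Its overlap therefore rests on both changes. With TMM-scaled CPM, 2 receptors (Gpr35 and P2ry13) were higher without overlap, or 1 of the other 5 without Gpr35, beside 4.58% of all tested genes, and 1 (Ffar2) was lower without overlap, beside 4.54%. Fold changes below come from the edgeR fit, which uses TMM scaling.

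Gpr35 is a receptor for which kynurenic acid, lysophosphatidic acid and hydroxyindoleacetic acid have been proposed as ligands. Its gene (ENSMUSG00000026271) lies on chromosome 1 from 92950865 to 92986391 on the plus strand of GRCm38. Gpr35 had 7.45, 7.46 and 8.11 CPM in polarized pairs A, B and C, against 16.7, 20.3 and 19.9 CPM in their depolarized partners. All 3 depolarized libraries are above all 3 polarized ones, and the polarized libraries lie close together. The values rest on 127 to 159 counts in the polarized and 337 to 390 counts in the depolarized libraries. The means were 7.67 ± 0.377 and 19.0 ± 2.00 CPM (SD, n = 3), and the fitted log2 fold change was 1.23 (SE 0.22). Pairs A, B and C differed by 1.21, 1.39 and 1.06 on the log2 scale. The fitted value lay between 1.15 and 1.32 over 10 other settings. A share of 0.683% of its 50-base stretches also occurs in another annotated gene. The nearest protein-coding neighbour, Capn10, lies 2924 bases away with a polarized range of 2.09 to 3.93 CPM and a depolarized range of 1.82 to 3.70 CPM, with overlapping groups.

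Promoter windows from RefSeq (GRCm38.p6) were matched for 8 of the 10 receptors, and the 250 bases before each start were searched on both strands for AP-1 (TGANTCA), PU.1 (AGGAAGT), C/EBP (TTGCNNAA), NFAT (TGGAAA) and CRE (TGACGTCA) letters. Of 32851 windows of this length in the table, 6.75% hold the AP-1 letters, 7.69% PU.1, 9.56% C/EBP, 18.6% NFAT and 1.55% CRE. The windows of Gpr35, P2ry13 and Ffar2 are printed because these are, of the 6 tested receptors, those whose TMM-scaled difference had the same sign in all 3 pairs. They run 5′ to 3′ on the strand of the gene and end at the base before the start, with matches in capitals. The upstream Gpr35 start has its window at chr1:92972869-92973118 (plus strand) with no match, and the downstream Gpr35 start at chr1:92978653-92978902 (plus strand) with an AP-1 match 184 bases before the start. Sequence after the downstream start was not found in a GENCODE M21 transcript of Gpr35, while that after the upstream start was. Both windows lie inside the counted span of the gene, which begins at 92950865. The P2ry13 window is chr3:59210883-59211132 (minus strand), with no match. The Ffar2 window is that of its most upstream listed start, chr7:30823776-30824025 (minus strand), with a C/EBP match 74 bases and an AP-1 match 52 bases before the start.
Gpr35 upstream start: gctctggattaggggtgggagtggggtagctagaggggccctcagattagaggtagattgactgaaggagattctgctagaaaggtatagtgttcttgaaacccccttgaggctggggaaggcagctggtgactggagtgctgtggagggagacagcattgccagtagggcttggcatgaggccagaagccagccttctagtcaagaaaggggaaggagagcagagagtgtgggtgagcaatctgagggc
Gpr35 downstream start: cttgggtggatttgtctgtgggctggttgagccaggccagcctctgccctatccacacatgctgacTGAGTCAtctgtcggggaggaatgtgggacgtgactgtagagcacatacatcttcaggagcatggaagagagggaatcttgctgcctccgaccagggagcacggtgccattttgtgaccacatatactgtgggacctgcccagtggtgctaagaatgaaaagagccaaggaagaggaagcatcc
P2ry13: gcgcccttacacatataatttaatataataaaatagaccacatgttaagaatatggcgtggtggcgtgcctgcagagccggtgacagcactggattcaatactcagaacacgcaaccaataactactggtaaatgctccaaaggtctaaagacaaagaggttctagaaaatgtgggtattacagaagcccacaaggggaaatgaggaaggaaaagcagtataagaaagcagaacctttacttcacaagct
Ffar2: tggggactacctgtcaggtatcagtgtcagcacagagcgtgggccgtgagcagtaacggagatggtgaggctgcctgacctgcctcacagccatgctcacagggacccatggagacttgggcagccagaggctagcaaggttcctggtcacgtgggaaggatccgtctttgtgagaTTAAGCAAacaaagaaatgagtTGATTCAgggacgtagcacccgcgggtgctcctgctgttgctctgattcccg
Elsewhere in the set, AP-1 letters were found before starts of P2ry10 and P2ry14, and PU.1 letters before those of Gpr84, Ffar2 and P2ry10. C/EBP letters lay before other starts of Ffar2 and before those of P2ry2, P2ry10 and P2ry14, and NFAT letters before those of P2ry14. A match describes letters in a window. Counts per gene do not show which start a transcript used.

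P2ry13 encodes an ADP receptor coupled to inhibitory G proteins. The gene (ENSMUSG00000036362) lies on chromosome 3 from 59207896 to 59210882 on the minus strand. It had 128, 123 and 157 CPM in polarized pairs A, B and C, and 218, 212 and 225 CPM in their depolarized partners. The groups do not overlap, the depolarized libraries lie within a narrow band, and the polarized library of pair C is the highest of its group. The means were 136 ± 18.2 and 218 ± 6.08 CPM (SD, n = 3). The fitted log2 fold change was 0.62 (SE 0.18), with an unadjusted edgeR p of 0.00328 and an edgeR adjusted p of 0.277 over all tested genes, so P2ry13 did not pass the test. It was above 0 in 3 of 3 pairs, at 0.83 (pair A), 0.75 (pair B) and 0.29 (pair C). Without pair C it was fitted at 0.79 and was called (edgeR adjusted p 1.23e-09), in a fit with 1 residual degree of freedom that called 500 genes higher and 518 lower in all. Without pair A (0.52) and without pair B (0.56) P2ry13 was not called. P2ry13 lies within the span of Med12l on the opposite strand and shares 0 exon bases with it.

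P2ry12, P2ry13 and P2ry14 lie near each other on chromosome 3, so P2ry12 was read beside P2ry13. P2ry12, the ADP receptor best known from platelets, lies 5389 bases away. It had 11.95, 9.45 and 9.84 CPM in the polarized group and 13.8, 14.5 and 17.04 CPM in the depolarized libraries of pairs A, B and C. Its groups do not overlap either, and its fitted log2 fold change was 0.47 (SE 0.22), with an edgeR adjusted p of 0.741. Markers of platelets summed to 2.04 to 2.88 CPM in polarized and 1.08 to 2.60 CPM in depolarized libraries, with none of the 6 at 0 in all libraries.

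Hcar2 encodes the receptor for the ketone body beta-hydroxybutyrate and for niacin, coupled to inhibitory G proteins. The gene (ENSMUSG00000045502, 1 exon) lies on chromosome 5 from 123863570 to 123865516 on the minus strand. It had 227, 162 and 207 CPM in polarized pairs A, B and C, and 288, 252 and 241 CPM in their depolarized partners. By plain CPM the lowest depolarized library is just above the highest polarized library, while by TMM-scaled CPM the polarized library of pair C, at 237, is above the depolarized libraries of pairs B and C, at 233 and 235. The means were 199 ± 32.9 and 260.3 ± 24.3 CPM (SD, n = 3). The fitted log2 fold change was 0.33 (SE 0.18) with an edgeR adjusted p of 0.871. The differences were 0.41, 0.59 and -0.01 in pairs A, B and C. Hcar2 was fitted at 0.50 and called without pair C (edgeR adjusted p 0.000352). That fit, with 1 residual degree of freedom, called 500 genes higher and 518 lower. Without pair A (0.30) and without pair B (0.20) Hcar2 was not called. The ratio of Hcar2 to P2ry13 in CPM was 1.77, 1.32 and 1.32 in the polarized and 1.32, 1.19 and 1.07 in the depolarized libraries, in the order of the pairs. Its neighbour Hcar1, the lactate receptor gene, had 0 counts in all libraries.

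**Figure D2:**
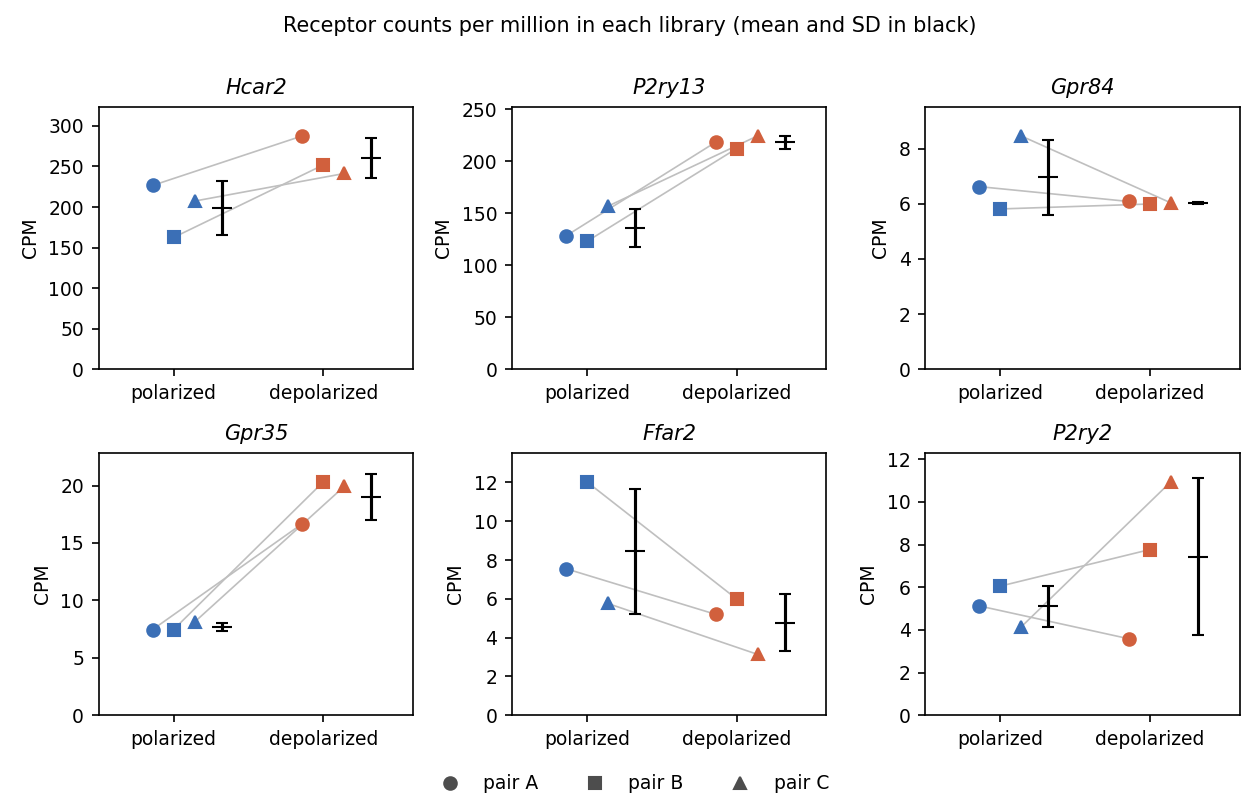
CPM of the 6 tested receptors in each library, on linear axes from 0, with grey lines joining the libraries of a pair and the mean and SD (n = 3) in black. Gpr35, P2ry13 and Hcar2 have depolarized libraries above all polarized ones, the polarized and depolarized values of the other 3 overlap, and with TMM scaling Hcar2 overlaps and Ffar2 does not.

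Ffar2 encodes the receptor for acetate, propionate and other short-chain fatty acids, which acts in neutrophil migration toward them. The gene (ENSMUSG00000051314) lies on chromosome 7 from 30818348 to 30823775 on the minus strand. It had 7.56, 12.04 and 5.76 CPM in polarized pairs A, B and C, and 5.20, 5.99 and 3.14 CPM in their depolarized partners. Within every pair the depolarized library is the lower, but the plain CPM groups overlap because the depolarized library of pair B is above the polarized library of pair C. The fitted log2 fold change was -0.87 (SE 0.27), with an unadjusted edgeR p of 0.00499 that was 0.343 after adjustment over all tested genes, so Ffar2 did not pass the test. The pair differences were -0.47, -1.03 and -1.08, below 0 in 3 of 3 pairs, and the means were 8.45 ± 3.23 and 4.78 ± 1.48 CPM (SD, n = 3). Ffar2 was called without pair C (-0.77, edgeR adjusted p 0.0205). That fit, with 1 residual degree of freedom, called 500 genes higher and 518 lower. Without pair A (-1.07) and without pair B (-0.78) Ffar2 was not called. Its neighbour Ffar3, another short-chain fatty acid receptor gene, had 0 counts in all libraries.

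Gpr84 encodes a receptor for medium-chain fatty acids that is induced by inflammatory stimuli in myeloid cells. The gene (ENSMUSG00000063234) lies on chromosome 15 from 103308236 to 103310438 on the minus strand. It had 6.62, 5.81 and 8.46 CPM in polarized pairs A, B and C, and 6.08, 5.99 and 6.03 CPM in their depolarized partners. The depolarized values lie within the polarized range. The fitted log2 fold change was -0.26 (SE 0.27), with an adjusted p of 1 by edgeR, and pair by pair it was -0.06, 0.01 and -0.71. Without pair C it was fitted at -0.028. Its level may be uncertain, since 37.8% of its 50-base stretches also occur in another GENCODE M21 gene model that has no row in the tables. Whether that model lies at the same place as Gpr84 was not checked.

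P2ry2 encodes a receptor for ATP and UTP coupled to phospholipase C, which acts in neutrophil chemotaxis. The gene (ENSMUSG00000032860) lies on chromosome 7 from 100996572 to 101011991 on the minus strand. It had 5.12, 6.05 and 4.13 CPM in polarized pairs A, B and C, and 3.58, 7.77 and 10.9 CPM in their depolarized partners. The depolarized libraries include both the lowest and the highest value of all 6. The pair differences were -0.44, 0.32 and 1.16, the widest spread of the 6 tested receptors (SD 0.802). The fitted log2 fold change was 0.36 (SE 0.31), with an adjusted p of 1 by edgeR, and it was -0.047 without pair C.

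**Figure D3:**
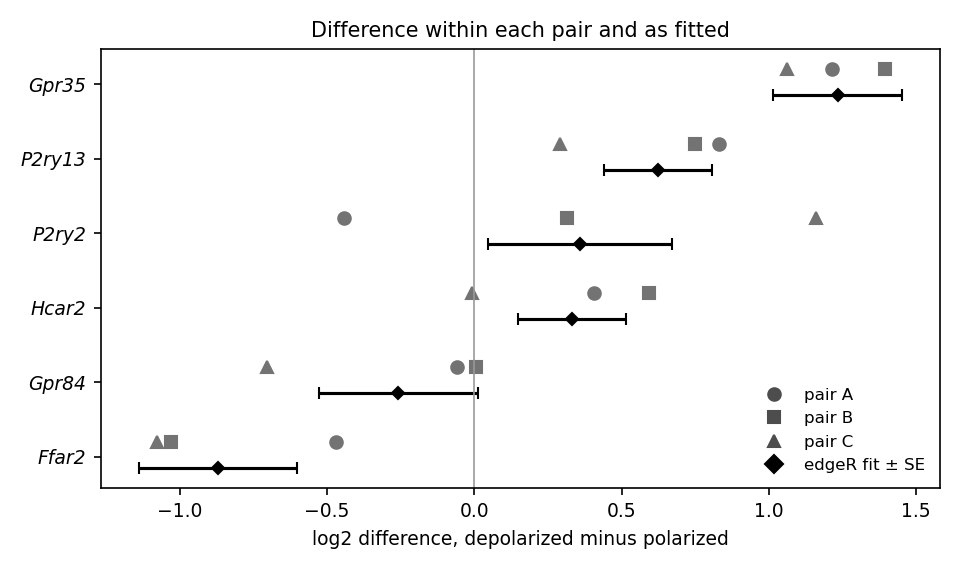
Log2 difference between the depolarized and the polarized library of each pair (grey symbols, TMM-scaled, prior count 2) and the edgeR log2 fold change with its approximate SE (black) for the 6 tested receptors. Gpr35 and P2ry13 lie above 0 and Ffar2 below 0 in all 3 pairs, while P2ry2 runs from -0.44 to 1.16.

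The 4 receptors below the filter were counted over each group. Adora2a, the gene of an adenosine receptor that raises cyclic AMP (chromosome 10, 75316943 to 75334788), had 1 count in the polarized group and 0 in the depolarized group. Adora2b, the gene of a related receptor that needs more adenosine (chromosome 11, 62248984 to 62266453), had 7 and 4 counts, a depolarized to polarized ratio of 0.566 with a 95% exact binomial counting interval of 0.122 to 2.23. At this depth 3 counts over a group stand for 0.0536 CPM (polarized) and 0.0531 CPM (depolarized), so Adora2a is below that level in both groups. P2ry10, whose product responds to lysophosphatidylserine despite its name (chromosome X, 107088492 to 107104974), had 26 and 15 counts, a ratio of 0.572 with an interval of 0.282 to 1.12. These counts came unevenly, with 16 of the 26 in the polarized library of pair A and 1 in that of pair B. The neighbouring paralog P2ry10b shares 3.79% of the 50-base stretches of P2ry10 and had 99 and 100 counts, so reads of P2ry10 are uncertain to that extent. P2ry14, the receptor gene for UDP-glucose (chromosome 3, 59114626 to 59130624), had 0, 1 and 3 counts in polarized pairs A, B and C, against 1, 6 and 16 in their depolarized partners. The depolarized library is above the polarized one in each pair and most counts come from pair C. Over the groups P2ry14 had 4 and 23 counts, a ratio of 5.70 with an interval of 1.95 to 22.7. These intervals cover counting error only, not the spread between libraries, and the libraries of the groups overlap.

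Other receptors of the same kinds were read from lists. Of 16 other metabolite receptors, 4 passed the filter, 0 were called in either direction by edgeR, 0 had an unadjusted p under 0.05, 0 were called by DESeq2, and 7 had 0 counts in all libraries. The 4 highest by RPKM were Gpr65, a proton-sensing receptor, at 41.5, Gpr132 at 1.95, Gpr18 at 1.35 and Gpr183, an oxysterol receptor, at 0.221. Of 11 other adenosine and P2Y-related receptors, 6 passed the filter, 0 were called by edgeR in either direction or by DESeq2, and 1 (P2ry12) had an unadjusted p under 0.05. The 4 highest were P2ry12 at 5.36 RPKM, the adenosine A3 receptor gene Adora3 at 2.33, the UDP receptor gene P2ry6 at 1.27 and Gpr34, a lysophosphatidylserine receptor gene, at 0.652. The median log2 fold change was -0.26 for the other metabolite receptors and 0.18 for the other adenosine and P2Y-related receptors, beside 0.33 for the set without Gpr35 and -0.0022 for all tested genes. Per kilobase, Adora3 was the highest of the 4 adenosine receptor genes, above Adora2b at 0.0554 RPKM.

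Genes that make or remove the ligands were also read. Of 19 listed genes of extracellular nucleotide and adenosine handling, 18 were in the tables and 11 passed the filter (Pnp is not analysed here). In that list edgeR called 0 in either direction, 1 gene had an unadjusted p under 0.05 and DESeq2 called 0, and the median log2 fold change was 0.10. Entpd1, named after its values were seen, encodes CD39, which degrades ATP and ADP. It had 298, 207 and 236 CPM in the polarized and 373, 300.3 and 341 CPM in the depolarized libraries of pairs A, B and C, which edgeR fitted at 0.40 (SE 0.17) on the log2 scale, with an edgeR adjusted p of 0.708. Nt5e, also named afterwards, encodes CD73, which makes adenosine from AMP, and was at 64.8 ± 20.5 and 51.4 ± 15.6 CPM (SD, n = 3). Of 10 genes of the kynurenine pathway, the source of the proposed Gpr35 ligand kynurenic acid, 3 passed the filter, 0 were called by edgeR or DESeq2 and 0 had an unadjusted p under 0.05.

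**Figure D4:**
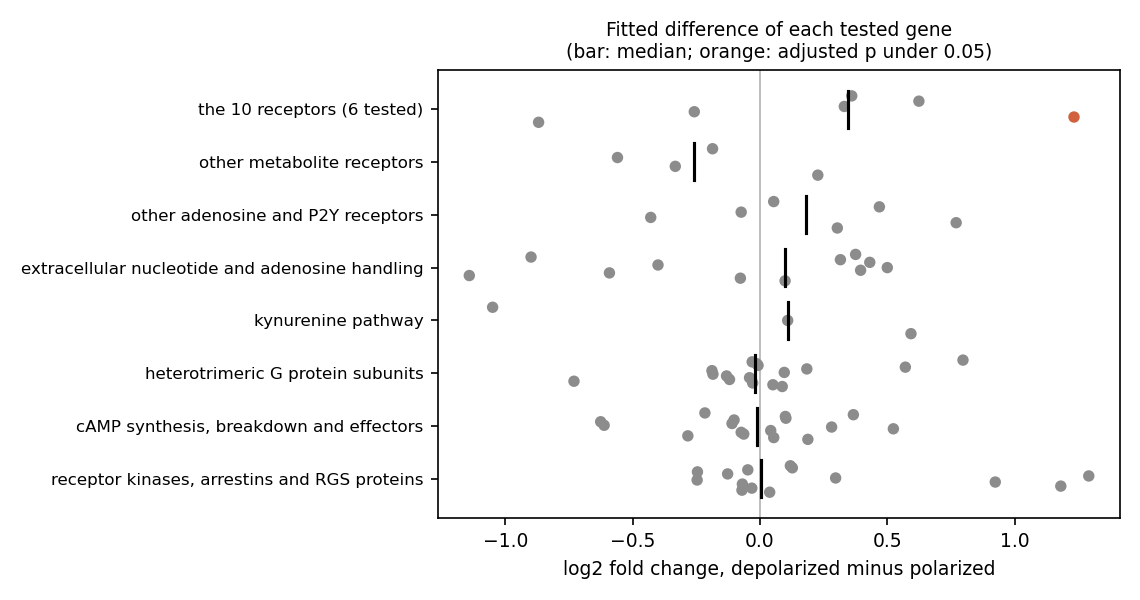
EdgeR log2 fold change of each tested gene, depolarized minus polarized, for the 6 tested receptors of the set and for the 7 other gene lists, with a bar at the median of each list. Gpr35, which was chosen for its difference, is the only point with an adjusted p under 0.05, and the list medians run from -0.26 to 0.35 (0.33 without Gpr35).

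The 5 genes whose levels over the 6 libraries were most like those of Gpr35, among 5178 genes with a mean log2 CPM of at least 3, were Tm9sf4 (Pearson r 0.981), Gm2a (0.973), Gcnt2 (0.972), Herpud1 (0.971) and Scamp3 (0.967). These correlations are descriptions over 6 libraries that share pairs, depth and scaling, and they include the difference between groups for which Gpr35 was chosen. None of the 5 was called, and their fitted log2 fold changes ran from 0.06 (Herpud1) to 0.83 (Gm2a). Of the set, P2ry13 had r 0.916 and Hcar2 had r 0.639 with Gpr35, and the other receptors were below that minimum level or were not tested.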

How the data were processed

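Per the submitters' processing notes, which give no order or role, the build was GRCm38 and the tools included bcl2fastq, Subread, STAR 2.0.4b and featureCounts 1.45. For each of 41388 genes the deposited tables hold whole-number counts with CPM and RPKM beside them. The deposited CPM and RPKM values equal those recomputed from the deposited counts, the library totals and the listed exon lengths. No source used here gives the strand setting, the annotation release or the handling of reads that match several places. Total counts ran from 16904969 to 20381489 per library.

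The counts were fitted with edgeR 4.0.16 (R 4.3.3): filterByExpr by group (9971 genes left, holding 99.9% of counts), TMM scaling, and the quasi-likelihood F test with the pair as a block and 2 residual degrees of freedom. The fitting steps were also run on simulated counts with the same dispersion for every gene. That setting is simpler than these libraries, so no error rate is read from it. Fold changes are depolarized minus polarized. A call is an adjusted p (Benjamini-Hochberg over all tested genes) under 0.05. Standard errors (SE) are approximate, from the fold change and the F statistic. DESeq2 1.42.0, other filters and scalings, a fit without the block and leaving out each pair were alternatives. The pairing comes from the design text. Deviations from group means correlated with r 0.08, 0.27 and 0.03 within pairs A, B and C, so the values show little of it. No 2 libraries of a group agreed within sampling noise (chi-square per degree of freedom 29.1 to 100.2). The labels call the pairs biological replicates without saying how many mice each came from.

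The members and lists were chosen with earlier results of these data known. By rule, the genes named are the 10 members, up to 3 called genes of each other receptor or pathway list (there were none), the 4 highest by RPKM of each other receptor list, the 5 most like Gpr35 by Pearson correlation, and neighbouring protein-coding genes, of which some are not reported here. Others (Entpd1, Nt5e, Gnai2, Gngt2, Grk5, Rgs10 and the single marker genes) were named after their values were seen. Symbols came from the reference table (40254 genes), neighbours and 50-base stretches from GENCODE M21, whose positions overlap those in the files for all 10 members, and promoter windows from RefSeq.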

Additional observations from a re-analysis of the deposited data

How the results depend on the processing

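Without the replicate block, 0 genes were called higher and 0 lower in depolarized cells, against 8 and 24 with the pairs as a block, and 0 receptors of the set against 1. That 1 is Gpr35, which was chosen for its difference, so nothing is read from its part in the receptor counts given here. With the length trend of each library removed and the block kept, 0 genes were called higher and 8 lower, and 0 receptors were called. DESeq2 with the block called 18 genes higher. Without a filter on low counts 50 genes were called higher and 96 lower, and with the stricter filter 5 and 3. Leaving out each pair gave 9 to 500 genes higher, 36 to 518 lower, 0 to 3 receptors higher and 0 to 1 lower. Without pair B no receptor was called. Without pair C, with 1 residual degree of freedom, Gpr35, P2ry13 and Hcar2 were called higher and Ffar2 lower (log2 fold changes 1.32, 0.79, 0.50 and -0.77), and P2ry2 changed sign (-0.047, with 0.75 without pair A). Among the 5 tested receptors other than Gpr35, leaving out pair C was the only setting among 10 that changed a call, and the fit without the block changed none. With TMM-scaled CPM, 1 tested receptor (Ffar2) was lower without overlap, against 0 by plain CPM. Of 20 group means of the receptors in CPM, 19 moved by less than 1 SD under TMM scaling. The cause of these moves was not tested. With 3 libraries a group, 2 residual degrees of freedom and at most 26 counts over a group for the 4 untested receptors, small differences were not detectable.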

Other observations

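Genes that carry the signal of these receptors inside the cell were read from 3 further lists. Of 25 heterotrimeric G protein subunit genes, 16 passed the filter, 0 were called in either direction by edgeR, 2 had an unadjusted p under 0.05 and DESeq2 called 1. Its members had a median log2 fold change of -0.02. Genes in this section are named after their values were seen. Gnai2, the main inhibitory alpha subunit gene of neutrophils, was at 766 ± 239 CPM (polarized) and 727 ± 151 CPM (depolarized; SD, n = 3). Gngt2, a gamma subunit gene and the gene that DESeq2 called, was at 37.3 ± 6.88 and 68.4 ± 16.2 CPM (SD, n = 3), fitted at 0.80 (SE 0.18) on the log2 scale, with an edgeR adjusted p of 0.0787 (DESeq2 adjusted p 0.00803).

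Of 26 genes of cyclic AMP synthesis, breakdown and response, 16 passed the filter, 0 were called by edgeR or DESeq2, 1 had an unadjusted p under 0.05, and the median was -0.01. Of 16 genes of receptor kinases, arrestins and RGS proteins, which end receptor signalling, 14 passed the filter, 0 were called by edgeR or DESeq2 and 2 had an unadjusted p under 0.05, with a median of 0.00. Those 2 were Grk5, a receptor kinase gene, at 4.29 ± 0.849 and 8.58 ± 1.90 CPM (SD, n = 3; edgeR adjusted p 0.314), and Rgs10 at 0.904 ± 0.2997 and 2.26 ± 0.190 CPM (SD, n = 3; edgeR adjusted p 0.401). By plain CPM, 3 genes of this list (Grk5, Rgs10 and Rgs2) were higher in depolarized cells without overlap. Rgs2 was at 802 ± 45.9 and 917 ± 17.8 CPM (SD, n = 3). Of all tested genes, 7.28% were higher without overlap by plain CPM, and 4.58% with TMM-scaled CPM. Rgs2 is not of the latter kind, because its TMM-scaled log2 difference fell below 0 in pair C (-0.04, beside 0.20 in pair A and 0.22 in pair B). EdgeR fitted Rgs2 at 0.13 (SE 0.18) on the log2 scale, with an unadjusted p of 0.482. Grk5 and Rgs10 were above 0 in 3 of 3 pairs.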
